A study of Mus musculus with 10 samples.

Results

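The angiopoietin and Tie receptor genes were examined in the left ventricle (LV) of young mice with a pressure-overloaded heart. The 5 genes were the ligands Angpt1 and Angpt2, the receptors Tek (also called Tie2) and Tie1, and the receptor phosphatase Ptprb (also called VE-PTP). They were taken by gene name from 55401 genes, and the group was chosen by measured values, the strongly lower FPKM of Angpt1 in nAAC than in sham LV. That difference is therefore a description with no test, and the same holds for the other 4 genes in this contrast. LV tissue came from wild-type (WT) mice at 4 weeks of age, with 1 library per mouse. The 5 nAAC mice had neonatal ascending aorta constriction, an operation soon after birth that narrows the vessel leaving the LV, and the 5 sham mice had the operation without it. Mice of both groups stayed with their mothers and were breast fed, and the study describes its stock as C57BL/6. The replicate numbers only name the mice, and the spread between them is the error given here.

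Angiopoietins are secreted ligands of Tie2, a receptor tyrosine kinase found mainly on endothelial cells. Angpt1, made by cells around the vessel such as pericytes and also by cardiomyocytes, activates Tie2 and keeps the endothelium quiescent, whereas Angpt2, released by endothelial cells, can act as an agonist or an antagonist depending on context. Tie1 modulates Tie2 in the same membrane, and VE-PTP removes phosphate from Tie2. In bulk LV tissue, fewer cells of a type and less RNA per cell cannot be told apart.

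All 5 genes are given here in the mouse build GRCm38, as the gene tables place them and as GENCODE release M21 annotates them. Angpt1 (ENSMUSG00000022309) spans chr15:42424723-42676977 on the minus strand and Angpt2 (ENSMUSG00000031465) spans chr8:18690263-18741562 on the minus strand. Tek (ENSMUSG00000006386) spans chr4:94739289-94874976 on the plus strand and Tie1 (ENSMUSG00000033191) spans chr4:118471191-118490061 on the minus strand. Ptprb (ENSMUSG00000020154) spans chr10:116275523-116389535 on the plus strand.

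Angpt1 has 2 annotated transcripts, and they are shown because the measured values are compared below with those each would give, and matched neither. Angpt1-201 is protein coding and has 9 exons and 4260 bases. Angpt1-202 is a processed transcript with no coding sequence annotated, 2 exons and 1530 bases. The last 30 bases of their common exon 1 are in lower case and the first 30 bases of exon 2 are in capitals, 5′ to 3′ on the minus strand.
Angpt1-201: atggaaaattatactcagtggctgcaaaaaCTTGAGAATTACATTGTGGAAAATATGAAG
Angpt1-202: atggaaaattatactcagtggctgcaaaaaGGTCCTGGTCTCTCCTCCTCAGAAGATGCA
The second exon of Angpt1-201 lies at chr15:42523504-42523659 and that of Angpt1-202 at chr15:42633306-42634250. The transcripts part at this junction, and the gene tables hold 1 value per gene with no junction reads.

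The libraries held 11182 to 12455 genes at an FPKM of 1 or more, where FPKM is the number of fragments per transcript length and library depth. Their depth was estimated at 4.86 to 6.82 gigabases. Mitochondrial transcripts took 32.8% to 39.9% of the TPM in nAAC mice and 33.7% to 49.8% in sham mice. The library of sham replicate 4 stood apart, with a Spearman correlation of −0.66 across genes between its deviation from the sham mean and transcript length, against −0.02 to 0.47 in the other sham mice. Xist, the RNA of the inactive X chromosome, was above 1 FPKM in 4 of 5 nAAC and 2 of 5 sham mice, so the sexes were not balanced. As a check of the tissue label, the 12 cardiomyocyte markers summed to between 17090 and 35733 FPKM in the 10 libraries. The atrial genes Myl7, Myl4, Sln and Bmp10 summed to up to 227 FPKM, so some libraries held atrial transcripts.

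Angpt1 was far lower in nAAC LV. Its FPKM in nAAC replicates 1 to 5 was 1.35, 1.52, 0.629, 1.70 and 1.40. In sham replicates 1 to 5 it was 14.9, 18.0, 16.5, 17.1 and 8.99. The groups did not overlap, and the lowest sham mouse, replicate 5, was still above every nAAC mouse. The mean was 1.32 ± 0.410 (SD, n = 5) in nAAC and 15.1 ± 3.60 (SD, n = 5) in sham, an 11.4-fold lower level. On the scale of log2(FPKM + 1), which understates the fold of low values, the difference was −2.78 with a standard error (SE) of 0.19. Angpt1 ranked 4 from the lowest among 11867 genes tested, and the median of those genes was 0.22. No left-out mouse moved it outside −2.94 to −2.66.

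Angpt2 was the least abundant of the 5 genes. Its FPKM in nAAC replicates 1 to 5 was 1.16, 0.653, 1.16, 1.11 and 0.795. In sham replicates 1 to 5 it was 0.610, 0.412, 0.573, 0.338 and 0.767. The other 4 nAAC mice were above all sham mice, but the groups overlapped, because nAAC replicate 2 was below sham replicate 5. The mean was 0.975 ± 0.235 (SD, n = 5) in nAAC and 0.540 ± 0.169 (SD, n = 5) in sham, 1.80-fold higher in nAAC. The log2 difference was 0.36 with an SE of 0.11. With a mean of 0.757 FPKM over all mice, Angpt2 was under the minimum of 1 FPKM set for testing.

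**Figure D1:**
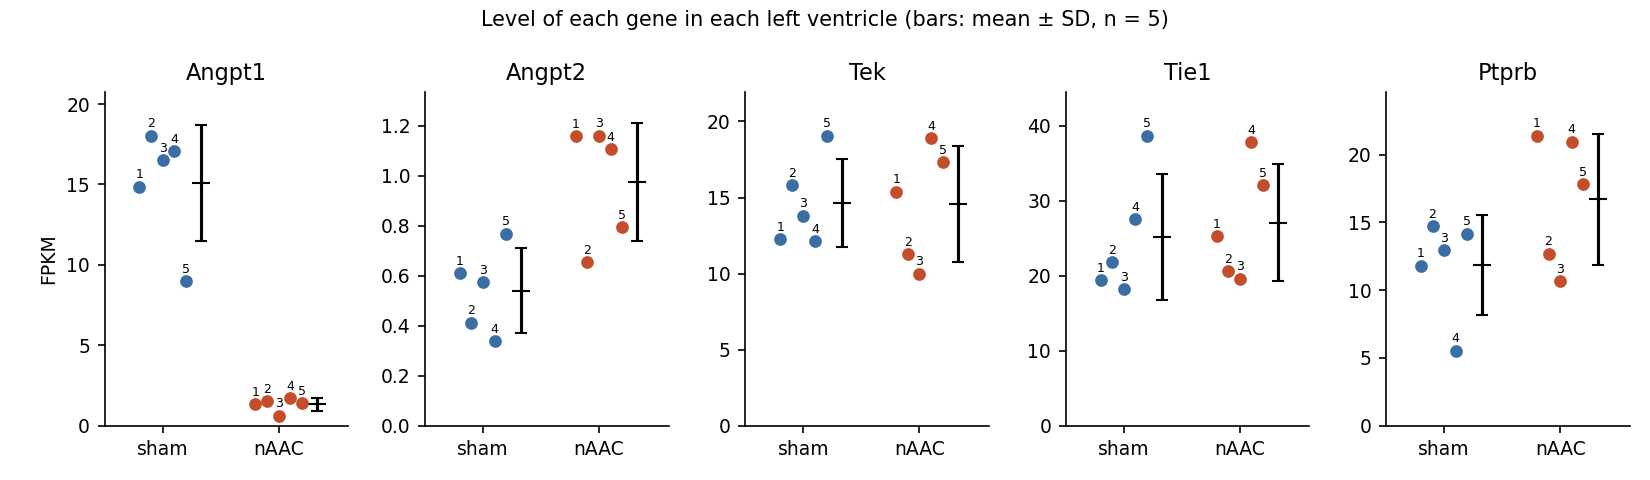
FPKM (vertical axis, from 0, with its own scale in each panel) of the 5 genes in the LV of each mouse, with points numbered by replicate and black bars giving the mean ± SD of 5 sham (blue) and 5 nAAC (red) mice. The 5 nAAC values of Angpt1, 0.629 to 1.70, all sit below the sham values of 8.99 to 18.0, while in the other 4 panels the groups overlap.

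The receptor Tek, which binds both angiopoietins, had the same mean in both groups. Its FPKM in nAAC replicates 1 to 5 was 15.4, 11.3, 9.999, 18.9 and 17.3. In sham replicates 1 to 5 it was 12.3, 15.8, 13.8, 12.1 and 19.1. The lowest and the next to lowest mice were both nAAC, the highest was a sham mouse, and the groups overlapped throughout. The means were 14.6 ± 3.83 and 14.6 ± 2.90 (SD, n = 5 each), and the log2 difference was −0.02 with an SE of 0.18. Other settings put it between −0.34 and 0.14, on both sides of 0.

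Tie1, the coreceptor with no classical ligand, was the most abundant of the 5 genes. Its FPKM in nAAC replicates 1 to 5 was 25.3, 20.6, 19.6, 37.8 and 32.1. In sham replicates 1 to 5 it was 19.4, 21.8, 18.2, 27.5 and 38.7. The spread within each group was wider than the gap between them. The means were 27.1 ± 7.75 in nAAC and 25.1 ± 8.39 in sham (SD, n = 5 each), with a log2 difference of 0.11 and an SE of 0.22. The sign of this difference turned with the scaling between libraries, to −0.17 under median-ratio scaling, and to −0.33 once trends with GC content and transcript length were removed.

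The phosphatase Ptprb had FPKM values of 21.4, 12.7, 10.6, 21.0 and 17.8 in nAAC replicates 1 to 5. In sham replicates 1 to 5 they were 11.8, 14.7, 13.0, 5.53 and 14.2. In nAAC, 3 mice were above all sham mice and the other 2 lay within the sham range. The means were 16.7 ± 4.86 in nAAC and 11.8 ± 3.70 in sham (SD, n = 5 each), 1.41-fold higher in nAAC, with a log2 difference of 0.48 and an SE of 0.25. The difference was 0.25 without sham replicate 4, the library in which long transcripts were low. Ptprb has the longest transcript of the 5 genes at 11911 bases, and a part of transcript length in its difference was not tested. Under median-ratio scaling it was 0.20.

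The groups overlapped in 4 of the 5 genes and not in Angpt1, whose fall in this contrast chose the gene group, so nothing is read from that count or from a call on any of the 5. As a background for the genes described below, among the 11867 genes tested, 31.7% had an adjusted p below 0.05, 27.1% being higher and 4.6% lower in nAAC, and 22.3% had groups that did not overlap, 18.9% higher and 3.46% lower. Differentially expressed genes (DEGs), which passed the same threshold and also had a log2 fold change above 1 in size, made up 5.91% of those tested. They were higher in nAAC for 5.01% of genes and lower for 0.893%.

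The order of the levels in sham LV on the FPKM scale was Tie1, Angpt1, Tek, Ptprb and Angpt2, and the levels of Angpt1, Tek and Ptprb lay within their spread of each other. In nAAC LV the order was Tie1, Ptprb, Tek, Angpt1 and Angpt2, with overlapping ranges for Tie1 and Ptprb, for Ptprb and Tek, and for Angpt1 and Angpt2. The place of Angpt1 in this order rests on how its FPKM was formed.

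Each table gives both the coverage of a gene, the mean depth over its exonic bases, and its FPKM. Divided by the most frequent value in its library, their ratio equals the length of the joined exons over the mean length of the transcripts that carried the reads. It was within 2% of 1 for 98.8% to 99.1% of the genes with 1 annotated transcript. It lay within the bounds of the annotated transcripts for 94.5% to 94.8% of the genes with several. For Angpt2 the implied mean length was 3560 bases, which is the length of its coding transcript Angpt2-201, and for Tie1 it was 4036 to 4095 bases beside 4091 for Tie1-201. Tek at 4358 to 4586 bases lay among its coding transcripts of 4176, 4549 and 4654 bases, and Ptprb at 11110 to 11531 bases was near its coding transcript Ptprb-201.

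Angpt1 did not follow its annotated transcripts. Its ratio was 11.1 in all 10 libraries, against 1.22 if all reads came from Angpt1-201 and 3.40 if all came from Angpt1-202. The implied mean length was 467 to 471 bases, shorter than either, in nAAC and sham mice alike. Between 3.70% and 3.99% of the genes above 1 FPKM had a ratio this high or higher. With the reads spread over the 5205 joined exon bases, the level of Angpt1 was 0.0569 to 0.154 in nAAC and 0.810 to 1.63 in sham on an FPKM-like coverage scale. The means of 0.119 and 1.36 still differed 11.4-fold, but the log2 difference after adding 1 was −1.06 with an SE of 0.10. Had all the coverage come from Angpt1-201, its FPKM could have been no more than 0.0695 to 0.188 in nAAC and 0.989 to 1.99 in sham. Which Angpt1 RNA carried the reads was not tested, so the FPKM of Angpt1 is not a level of the coding transcript.

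**Figure D2:**
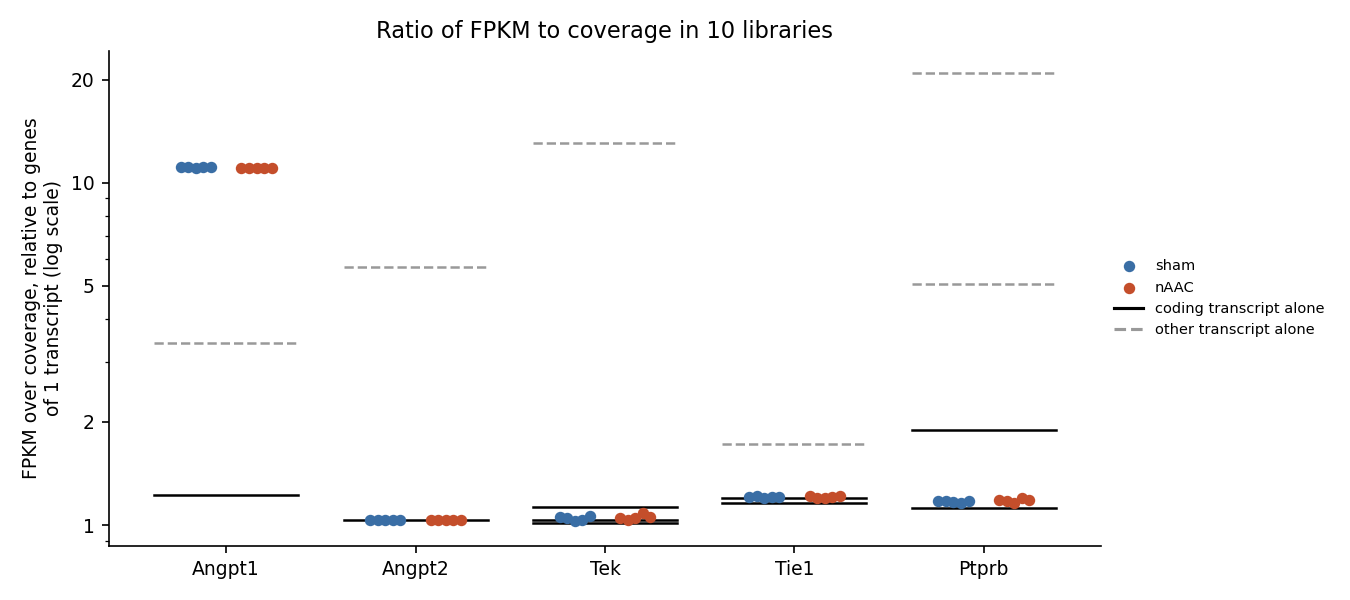
Ratio of FPKM to coverage, divided by the most frequent value in the same library (vertical log axis, no unit), for the 5 genes in 5 sham (blue) and 5 nAAC (red) libraries, with black lines for the value each coding transcript alone would give and dashed lines for other annotated transcripts. The Angpt1 points lie at 11.1, above its annotated lines at 1.22 and 3.40, and the other 4 genes lie near a coding line.

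On the coverage scale the sham order was Tie1 at 20.8, Tek at 14.0, Ptprb at 10.1, Angpt1 at 1.36 and Angpt2 at 0.521. In nAAC LV, Angpt2 at 0.940 was above Angpt1 at 0.119. Both ligands were thus low beside their receptor in coverage, and Angpt1 was the lower of them in nAAC and the higher in sham. Genes that overlap the members could share reads where strand was not used, which the sources used here do not give. Gm17473, a gene on the opposite strand at the first exon of Angpt1, had 0.00843 to 0.139 FPKM in nAAC and 0.136 to 0.567 in sham. Mcph1, on the strand opposite Angpt2, had mean levels of 0.719 FPKM in nAAC and 0.829 in sham. Gm47625 and Gm26495, within Ptprb on the same strand, were at or near 0.

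The values of both ligand genes were also set against each other within each library. The ratio of Angpt2 to Angpt1 FPKM ranged from 0.429 to 1.84 with a median of 0.649 in nAAC, and from 0.0198 to 0.0853 with a median of 0.0347 in sham. The groups did not overlap and differed by 4.42 on the log2 scale, between 4.10 and 4.74 with any 1 mouse left out. On the coverage scale the medians were 6.92 in nAAC and 0.370 in sham. A ratio within a library does not depend on the scaling between libraries, but it carries the fall of Angpt1 that chose the gene group. It also holds the FPKM of Angpt1, which is not a level of the coding transcript. A balance of the ligands was therefore not tested.

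The receptors were also set against 15 endothelial markers in the same library. The summed FPKM of these markers was 602 to 1104 in nAAC and 751 to 1076 in sham, of which Fabp4 averaged 350 and 432. Their mean log2 value, the reference used here, was 4.82 ± 0.27 in nAAC and 4.60 ± 0.16 in sham (SD, n = 5 each). That reference was thus 0.22 higher in nAAC, while Tek itself differed by −0.02. On the log2 scale, Tek was below their mean by 0.89 ± 0.15 in nAAC and by 0.65 ± 0.17 in sham (SD, n = 5 each), a difference of −0.24. Tie1 lay at −0.05 and 0.06, a difference of −0.11. For Ptprb the difference was 0.26 and was 0.03 without sham replicate 4. In all 3 genes the groups overlapped.

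The ratio of Ptprb to Tek, the phosphatase to its substrate, was 1.03 to 1.39 in nAAC and 0.456 to 0.962 in sham. The groups did not overlap, as in 22.3% of the single genes tested, and no such share was computed for ratios. Ptprb and Tek each overlapped between the groups on their own. The log2 difference of the ratio was 0.55, or 0.36 without sham replicate 4. This ratio and that of Tie1 to Tek were added to the ratios planned. The ratio of Tie1 to Tek was 1.86 ± 0.139 in nAAC and 1.72 ± 0.416 in sham (SD, n = 5 each), with overlapping groups.

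**Figure D3:**
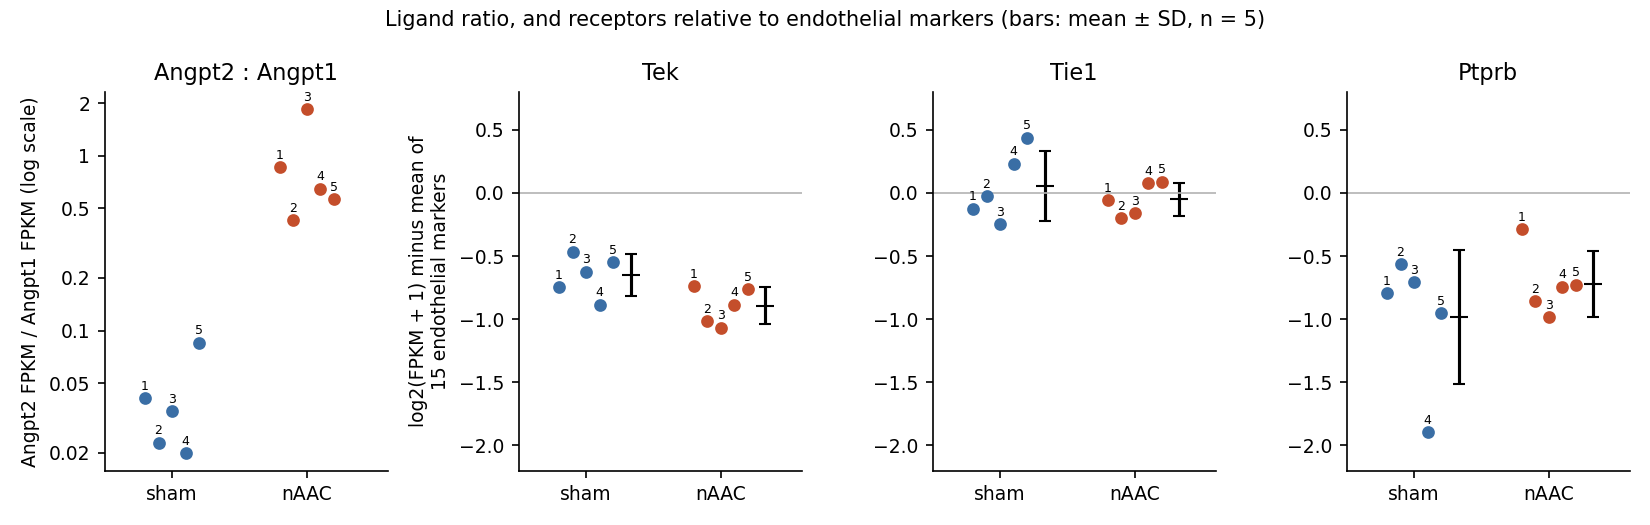
Left panel, the ratio of Angpt2 to Angpt1 FPKM in each library on a log axis, and right panels, log2(FPKM + 1) of Tek, Tie1 and Ptprb minus the mean of 15 endothelial markers. Points are numbered by replicate in sham (blue) and nAAC (red) mice, and bars in the right panels only give mean ± SD of 5. The ligand ratio is 0.0198 to 0.0853 in sham and 0.429 to 1.84 in nAAC, and the receptor panels overlap, with sham replicate 4 lowest for Ptprb.

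The genes whose pattern over the 10 libraries was most like that of Angpt1 were found by the root-mean-square (RMS) difference of centred log2 values. They were Gm24474 at 0.316, Pla2g5 at 0.385, Aqp4 at 0.415, Gpr22 at 0.442 and Kcnj3 at 0.455. Each gene was centred on its mean over all 10 libraries, so the difference between the groups is part of this measure. These genes had log2 differences of −3.04 to −1.97, so their likeness carries the fall of Angpt1 that chose the gene group. Shared control of them was not tested. Pla2g5 encodes a secreted phospholipase, Aqp4 a water channel, Gpr22 an orphan receptor and Kcnj3 a channel subunit of the acetylcholine-gated potassium current. Gm24474 went from 10.8 FPKM in sham to 0.428 in nAAC and Pla2g5 from 10.7 to 0.938. For Tek the nearest genes were Trim25 at 0.0789, Jam2 at 0.0966, Tspan15 at 0.103, Lyn at 0.108 and Baz2b at 0.110. Tie1 ranked 736 by likeness to Tek and Ptprb ranked 6016, so neither was among its close matches. Tek ranked 2737 by likeness to Angpt1.

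The wider Tie pathway was described with 5 lists holding 65 genes, of which 56 were tested. By limma, 21 of the 56 were higher in nAAC (37.5%, against 27.1% of all genes tested) and 2 were lower (3.57%, against 4.6%). The median log2 difference was 0.31 beside 0.22 for all genes tested. Under median-ratio scaling, which moved the median of all genes from 0.22 to −0.02, 12 were higher and 4 lower. The background under that scaling was 12.4% higher and 12.9% lower of 11821 genes.

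In the list of other ligands and cofactors of the Tie receptors, 4 of 5 tested genes were higher in nAAC, beside 27.1% of all genes tested. Apart from Svep1, the tested genes were all integrin genes, and the list's median of 1.10 was the value of Itgb5. Svep1, an extracellular matrix protein that binds Tie1, rose from 0.764 to 6.82 FPKM (log2 difference 2.10, adjusted p = 2.5e-06 by limma). The integrin genes Itga5, Itgb5 and Itgb1 rose by 1.21, 1.10 and 0.39 on the log2 scale. Itgb1 did not pass the test under median-ratio scaling, with an adjusted p of 0.66. Angpt4, a further angiopoietin gene, was at a mean of 0.123 FPKM in nAAC and 0.0343 in sham and was not tested.

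Of 21 adaptors and kinases downstream of Tie2, 7 were higher and 2 lower in nAAC, beside 27.1% and 4.6% of all genes tested. The median of the list was 0.23. Dok1, of the Dok adaptor family, rose by 1.19 on the log2 scale (adjusted p = 0.00031 by limma), Tnip2, the NF-kB inhibitor ABIN-2, rose by 0.82 and the focal adhesion adaptor Pxn by 0.76. The phosphatase gene Ptpn11 rose by 0.72. Grb14, an adaptor that also binds the insulin receptor, fell from 49.7 to 32.2 FPKM (log2 difference −0.61, adjusted p = 0.0019 by limma). Pik3r1, the regulatory subunit of phosphoinositide 3-kinase, fell by 0.83 on the log2 scale (adjusted p = 0.011 by limma). These 6 genes passed the test under median-ratio scaling as well, where 4 genes of the list were higher and 4 lower. Dok2, of the same family as Dok1, was at a mean of 0.827 FPKM in nAAC and 0.731 in sham and was not tested.

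Of 13 outputs under Tie2 and Akt, 4 were higher and none lower, beside 27.1% and 4.6% of all genes tested. The 4 were Iqgap1, Src, Klf4 and Diaph1, with log2 differences of 0.76, 0.62, 0.59 and 0.44, and only Src passed under median-ratio scaling. Foxo1, the transcription factor that Akt holds out of the nucleus and that drives Angpt2, differed by 0.27 (adjusted p = 0.16 by limma), and Nos3, the endothelial nitric oxide synthase, by 0.38 (adjusted p = 0.12 by limma).

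Of 7 genes for receptor shedding and receptor phosphatases, 4 were higher and none lower, beside 27.1% and 4.6% of all genes tested. The median of the list was 0.53. Timp1, an inhibitor of metalloproteinases, rose from 1.47 to 10.7 FPKM (log2 difference 2.20, adjusted p = 8.0e-06 by limma). Timp2, Mmp14, a membrane metalloproteinase that cleaves Tie2, and Ptprj rose by 0.76, 0.64 and 0.44 on the log2 scale. Ptprj did not pass under median-ratio scaling (adjusted p = 0.15).

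Of 12 transcription factors known for control of these genes, 2 were higher, Foxc2 by 0.73 and Elk3 by 0.63 on the log2 scale, and none was lower. Among all genes tested, 27.1% were higher and 4.6% lower. The median of 0.20 was close to that of all genes. Foxc2, at a mean of 1.53 FPKM in nAAC and 0.540 in sham, reached the minimum for testing through its nAAC values. It was not tested under median-ratio scaling, where 1 of 11 genes, Elk3, was higher and none was lower. Under upper-quartile scaling none was higher and 1 was lower. The mean level of Erg was 10.3 FPKM in nAAC and 8.79 in sham (adjusted p = 0.52 by limma).

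**Figure D4:**
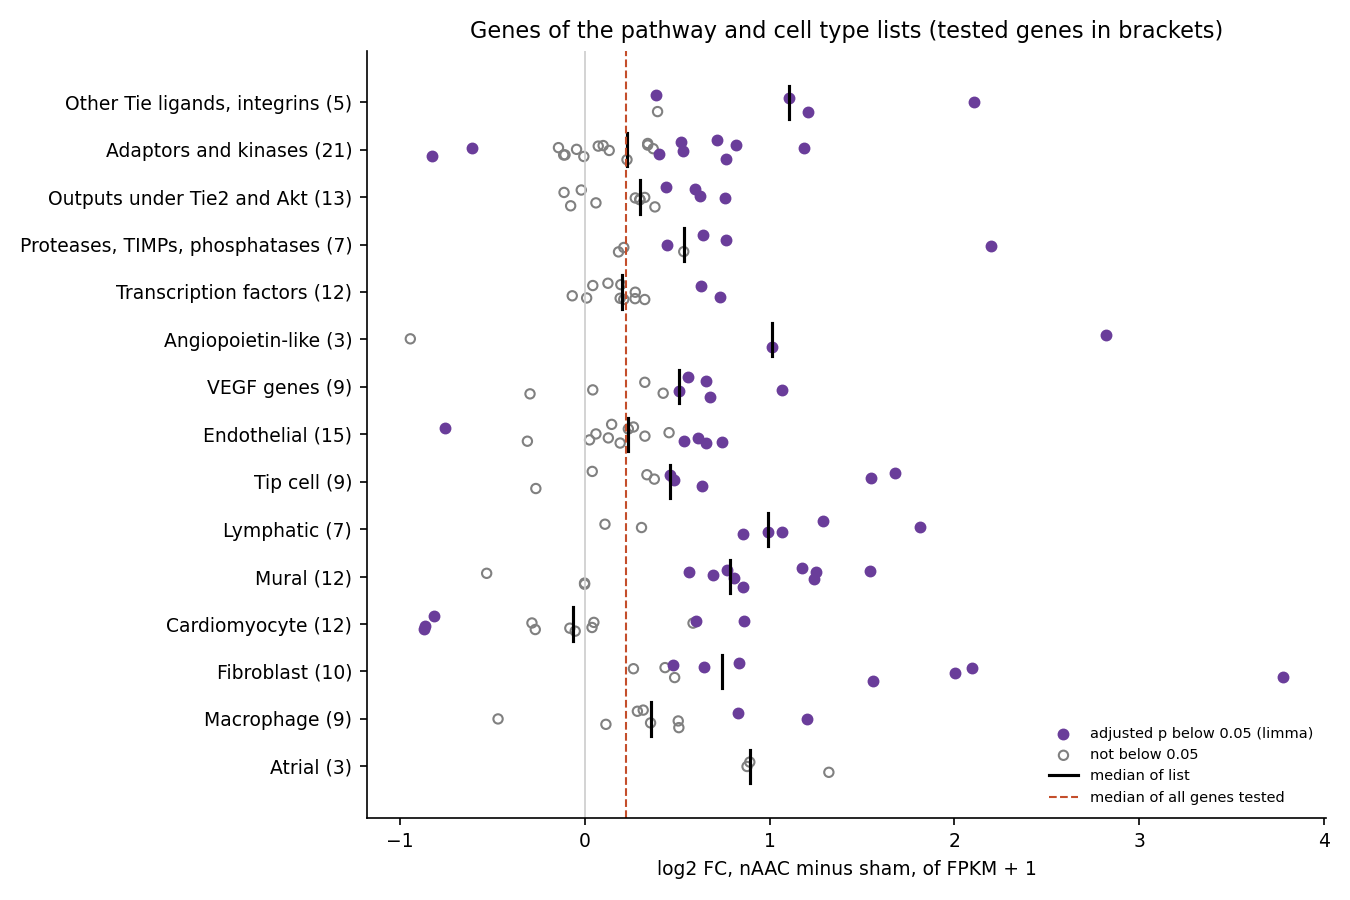
Log2 difference of FPKM + 1, nAAC minus sham (horizontal axis), for each tested gene of 5 pathway lists and 10 lists of related genes and cell type markers, filled where the adjusted p by limma was below 0.05, with black bars for list medians and a dashed line for the median of all genes tested, 0.22. The median is 1.10 for the other Tie ligands and integrins and −0.07 for cardiomyocyte markers, and some genes stand in more than 1 list.

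Genes of related vascular ligands are given beside the angiopoietins. Of 9 tested VEGF ligands, receptors and neuropilins, 5 were higher and none lower, beside 27.1% and 4.6% of all genes tested. Flt4, the receptor of lymphatic endothelium, was up by 1.07 (adjusted p = 6.0e-05 by limma) and Vegfa by 0.56 on the log2 scale. Nrp2 and Kdr rose by 0.68 and 0.66. Under median-ratio scaling 1 was higher, Flt4, and 1 was lower, Pgf, with a log2 difference of −0.48 (adjusted p = 0.013 by limma). With FPKM as deposited 3 were higher without nAAC replicate 1, 4 or 5 or without sham replicate 1 or 3. The angiopoietin-like genes, which do not bind Tie receptors, included Angptl7, which rose from 1.07 to 14.6 FPKM (log2 difference 2.82, adjusted p = 1.2e-05 by limma), and Angptl2, which rose by 1.01 on the log2 scale. The other tested gene, Angptl4, an inhibitor of lipoprotein lipase, was at 1.25 FPKM in nAAC and 3.22 in sham (log2 difference −0.95, adjusted p = 0.060 by limma), and it passed the test as lower under median-ratio scaling (adjusted p = 0.022).

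Marker lists of the cells that carry or make these genes moved unequally with the groups. Endothelial markers, the cells of Tek, Tie1 and Ptprb, had 4 of 15 genes higher and 1 lower, close to the 27.1% and 4.6% of all genes tested. The median of these markers, 0.23, was beside that of all genes. Vwf, Kdr, Robo4 and Eng were up by 0.74, 0.66, 0.61 and 0.54 and the water channel Aqp1 was down by 0.76 on the log2 scale. Under median-ratio scaling 1 was higher and 2 were lower, and with GC and length trends removed 0 were higher. Without sham replicate 3, or without nAAC replicate 4 or 5, 2 were higher, and Aqp1 lost its call without nAAC replicate 2 or 3 or sham replicate 1 or 5.

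Pericyte and smooth muscle markers, from cells known to make Angpt1, had 9 of 12 genes higher and none lower. Among all genes tested, 27.1% were higher and 4.6% lower. The summed FPKM of these markers was 322 to 459 in nAAC and 214 to 347 in sham. Tagln, Myh11, Cspg4 and Cnn1 rose by 1.54, 1.25, 1.24 and 1.17 on the log2 scale. Notch3, Higd1b and Pdgfrb, also of this list, rose by 0.81, 0.77 and 0.69. Abcc9 had a log2 difference of −0.53 (adjusted p = 0.082 by limma). The markers Rgs5 and Kcnj8 had log2 differences of −0.00 each, with adjusted p = 0.99 by limma for both, so the markers of this list did not move alike. Under median-ratio scaling 6 of the 12 were higher and 1 was lower. Fibroblast markers, with 7 of 10 higher, summed to 1086 to 1725 FPKM in nAAC and 703 to 931 in sham, and Postn, a matrix gene of activated fibroblasts, rose by 3.78. Under median-ratio scaling 5 of the 10 fibroblast markers were higher and none was lower.

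Cardiomyocyte markers, from another cell that makes Angpt1, had 2 of 12 genes higher and 3 lower, beside 27.1% and 4.6% of all genes tested. The summed FPKM of these markers was 17090 to 26261 in nAAC and 19676 to 35733 in sham. Atp2a2, Pln and Tnni3, genes of calcium handling and of the thin filament, fell by 0.87, 0.86 and 0.82 on the log2 scale. The sarcomere genes Mybpc3 and Actc1 rose by 0.86 and 0.60 on the log2 scale (adjusted p = 0.0025 and 0.015 by limma). Under median-ratio scaling 1 of the 12 was higher and 4 were lower, and with GC and length trends removed 1 was higher and 6 were lower. Macrophage markers had 2 of 9 higher, C1qa and C1qb, and summed to 143 to 290 FPKM in nAAC and 97.3 to 206 in sham. Under median-ratio scaling 1 of the 9 macrophage markers was higher and 1 was lower. The atrial markers summed to 2.03 to 227 FPKM in nAAC and 3.05 to 44.7 in sham. None of the 3 tested atrial genes passed the threshold, and Bmp10 was listed at 0 in all 5 nAAC mice. The part of cell makeup in the values of Angpt1 was not tested.

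**Figure D5:**
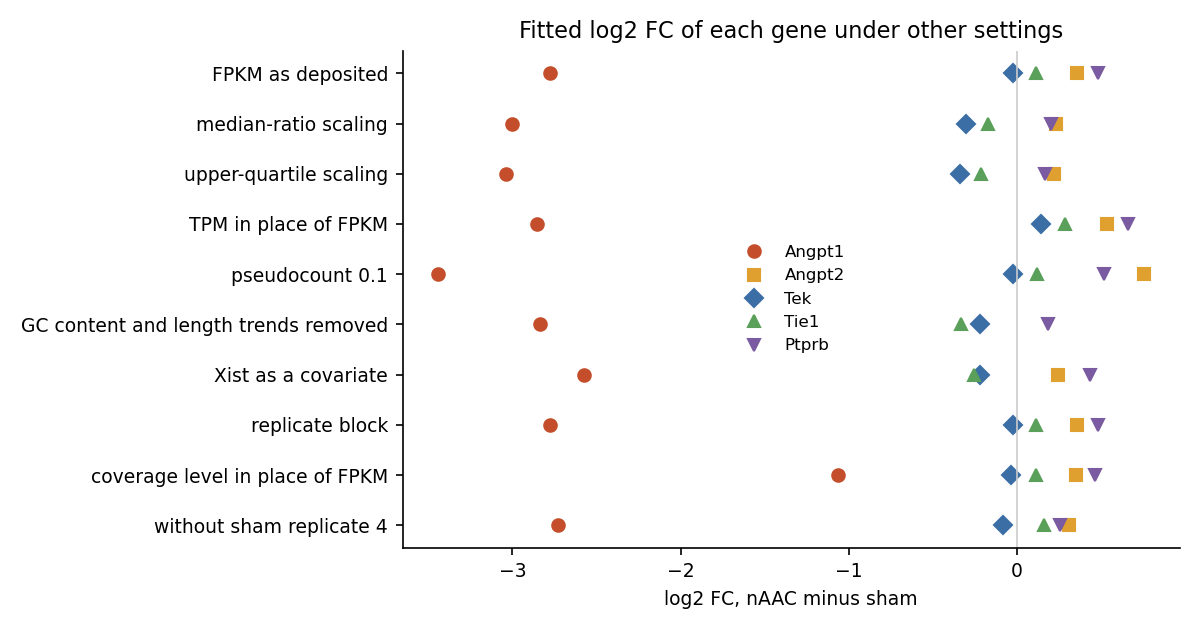
Fitted log2 difference, nAAC minus sham (horizontal axis), of each of the 5 genes under the FPKM as deposited and 9 other settings, 1 symbol per gene. Angpt1 stays below 0 under each, from −3.44 with a pseudocount of 0.1 to −1.06 on the coverage scale, while Tek and Tie1 lie on both sides of 0.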

How the data were processed

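LV libraries of 5 nAAC and 5 sham mice were grouped by the operation named in their labels. Total RNA was taken with Trizol and libraries were made with a NEBNext Ultra kit. For each mouse the authors deposited 1 gene table with 3 values per gene. The deposited coverage is a signal, the mean depth over the bases of a gene. The deposited FPKM is scaled by the authors for transcript length and depth, and the deposited TPM is rescaled by the authors to a fixed sum per library. The submitters' processing notes name the build mm10. The aligner, the quantifier, the annotation release and the use of strand are not given in the sources used here. Read counts cannot be recovered from the tables, so counting error is unknown, and no count model was used.

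Rows that shared a gene ID, 7 to 12 surplus rows per table, were summed, which left 55401 genes. Of these IDs, 99.53% are in GENCODE M21, which gave positions, transcripts and exon sequences. A gene entered the test when its FPKM averaged 1 or more over the libraries. A gene with a mean below 1 in 1 group could thus enter through the other group. Svep1, Dok1, Src, Foxc2, Ptprj, Cnn1, Reln and Esm1 entered in this way through nAAC, and Gm24474, Pla2g5 and Aqp4 through sham. The values, as log2(FPKM + 1), were fitted with limma 3.58.1 (R 4.3.3, trended prior, no covariate), and p-values were adjusted over 11867 genes by Benjamini-Hochberg. Genes were called higher or lower at an adjusted p below 0.05, and DEGs also had a log2 fold change above 1 in size. The fit was tested on simulated data. Tables and plots were made in Python 3.11.15 with pandas 2.3.3 and matplotlib 3.10.9.

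Members and lists were chosen with earlier results of these data known. Genes were named by a fixed rule: the 5 members, up to 4 called genes per list and direction with the largest change, the most abundant marker of a list, the 5 genes nearest in pattern to Angpt1 and to Tek, and genes annotated over a member. Foxo1, Nos3, Angpt4, Dok2, Erg, Kcnj8, Notch3, Higd1b, Pdgfrb, Abcc9, Prox1, Apln, Pgf, Angptl4, Myl7, Sln and Bmp10 were named outside the rule, after their values were seen. Alternatives were other scalings, TPM, a pseudocount of 0.1, no filter, a replicate block, Xist as a covariate, removal of trends with GC content and length, each mouse left out, and the coverage level, which is the coverage times the FPKM that 1 unit of coverage gave most often in that library. Same-numbered nAAC and sham mice did not deviate together, with correlations of −0.32 to 0.19.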

Additional observations from a re-analysis of the deposited data

Results flagged for a closer look

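Dixon's ratio, the distance from the highest or lowest mouse to the next one, as a share of the group's range, was computed for 56 groups of 5 mice, and chance flags about 1 in 20 such groups. It passed the critical value of 0.71 in 5 groups, beside 2.8 that chance would give. For Angpt1 it was 0.72 in nAAC, where replicate 3 was lowest at 0.629 FPKM, and 0.72 in sham, where replicate 5 was lowest at 8.99 FPKM. For Ptprb it was 0.77 in sham, where replicate 4 was lowest at 5.53 FPKM. The mean log2 value of the outputs under Tie2 and Akt had a ratio of 0.75 in sham, where replicate 5 was highest, and that of the lymphatic markers had a ratio of 0.73 in sham, where replicate 2 was lowest.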

How the results depend on the processing

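The log2 difference of Angpt1 was −3.44 with a pseudocount of 0.1 and −1.06 on the coverage level, which was added with the data already seen. It kept its sign under all 19 alternatives. Angpt2 kept its sign under 18, with 0.54 by TPM and 0.76 with a pseudocount of 0.1, and removal of GC and length trends was not run for it. Ptprb kept its sign under 19, from 0.17 to 0.66. Tie1 was −0.33 with GC and length trends removed and changed sign under 5 of 19 alternatives, as did Tek, from −0.34 to 0.14. With GC and length trends removed, median-ratio scaling and upper-quartile scaling, in that order, higher DEGs fell from 595 to 323, 346 and 318 and lower DEGs rose from 106 to 201, 219 and 244. Genes called higher went from 3211 to 1715, 1461 and 1300, and those called lower from 546 to 1844, 1521 and 1734. List genes called higher went from 60 to 36, 35 and 33, and those called lower from 6 to 22, 15 and 16. TPM gave 1034 higher DEGs and 5304 genes called higher, a pseudocount of 0.1 gave 952 higher and 169 lower DEGs, and Xist as a covariate gave 1593 genes and 38 list genes called higher. The cause of these shifts was not tested. With each mouse left out, higher DEGs ranged from 546 to 683 and lower DEGs from 99 to 123, genes called higher from 2392 to 3930 and lower from 426 to 621, and list genes called higher from 51 to 64 and lower from 5 to 7. In such fits Angpt1 ranged from −2.94 to −2.66, Angpt2 from 0.31 to 0.42, Tek from −0.12 to 0.09, Tie1 from −0.01 to 0.28 and Ptprb from 0.25 to 0.62.

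Replicate numbers did not pair the mice, so a replicate block only uses a shared number. With the block, 598 higher and 106 lower DEGs and 2929 higher and 497 lower called genes were found, and the 5 members kept their log2 differences. The tables hold no read counts, so the precision of low values such as Angpt2 and the nAAC values of Angpt1 is unknown.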

Other observations

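Further vascular genes were measured in the same libraries. Lymphatic endothelial markers had 5 of 7 genes higher in nAAC and none lower by limma, beside 27.1% and 4.6% of all genes tested. The list had a median log2 difference of 0.99 and a summed FPKM of 58.4 to 80.2 in nAAC and 23.0 to 30.8 in sham. The chemokine gene Ccl21a rose from 10.3 to 37.8 FPKM (adjusted p = 6.4e-05 by limma) and Pdpn, a membrane glycoprotein of lymphatic vessels, from 1.69 to 5.58 FPKM (adjusted p = 5.4e-06 by limma). Reln and Mmrn1 rose by 0.86 and 0.99 on the log2 scale, and 5 genes of the list were higher under median-ratio scaling too. Prox1, a lymphatic transcription factor that cardiomyocytes also express, was at 6.55 FPKM in nAAC and 6.06 in sham (adjusted p = 0.55 by limma).

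Genes of sprouting endothelial tip cells had 5 of 9 tested members higher and none lower, beside 27.1% and 4.6% of all genes tested. Esm1, a secreted proteoglycan of tip cells, rose from 0.252 to 3.03 FPKM (adjusted p = 3.1e-07 by limma), and Unc5b, a netrin receptor, from 3.31 to 11.4 FPKM (adjusted p = 5.9e-06 by limma). Under median-ratio scaling 2 were higher, Esm1 and Unc5b, and 1 was lower, the peptide ligand gene Apln, with a log2 difference of −0.46.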
